A study of Mus musculus with 15 samples.

Results

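The genes described here are 8 transcription factors of interferon and cytokine signalling, STAT2, STAT3, STAT6, IRF1, IRF2, IRF7, IRF8 and IRF9, together with SOCS1, the feedback inhibitor of the same pathway. They were chosen by symbol, and all 9 of 9 were found among the 24891 genes of the expression table. They were followed across 15 libraries from 105K tumors, with 3 libraries in each of 5 groups. 105K is a Tsc2-/- cell line that was grown from a kidney tumor arising in a Tsc2+/- mouse, so Tsc2 loss was shared by all groups. The cells were transduced with a non-target shRNA (sh-NC) or with either of 2 shRNAs against B7-H3, called sh-B7-H3 and numbered (1) and (2), and each was used as a mixed, drug-selected pool rather than as a clone. They were mixed with matrigel and injected under the skin of 6-week-old male wild-type C57BL/6J mice, which have an intact immune system. RNA came either from bulk tumor, where the groups are sh-NC and sh-B7-H3 (1), or from sorted tumor cells, where the groups are sh-NC and both numbered shRNAs. Sorting was a magnetic depletion of non-tumor cells. B7-H3, encoded by Cd276, is an immune checkpoint protein, and the comparisons address which genes differ in tumors when it is knocked down.

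STAT proteins wait in the cytoplasm, are phosphorylated by JAK kinases at an occupied cytokine receptor, pair up and bind DNA. IFN-γ drives a STAT dimer to GAS sites, and type I interferon drives a complex of STAT2, IRF9 and another STAT, called ISGF3, to interferon-stimulated response elements (ISREs). IRF proteins bind ISREs too. IRF1 activates antigen presentation and chemokine genes, IRF2 competes with IRF1 for the same elements, IRF7 drives type I interferon genes, and IRF8 directs the development of macrophages and dendritic cells. STAT3 answers to the IL-6 family, STAT6 answers to IL-4 and IL-13, and SOCS1 inhibits JAK kinases and so ends the response that induced it.

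The start sites of the 9 genes were searched for both kinds of element, because STAT and IRF proteins are known to bind such letters. The windows run from 250 bases before to 50 bases after each RefSeq start site (build GRCm38.p6), and all 9 genes had at least 1 window. The GAS site was searched as TTCNNNGAA and the ISRE core as GAAANNGAAA, on both strands. GAS letters stood near 3 of the 9 genes (IRF1, IRF2 and IRF8), and the ISRE core near 3 (STAT2, IRF2 and SOCS1). Among all 27025 genes with a window, 9.55% held the GAS site and 3.99% held the ISRE core. The letters were not found in the windows of STAT3, STAT6, IRF7 and IRF9. A match is a string of letters and not a site shown to be bound.

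The stretches that hold the matches are shown 5′ to 3′ on the strand of each gene, with the matching letters in capitals. They let the elements be compared between IRF1 and SOCS1, the members that differed most between groups, and IRF2, STAT2 and IRF8.
IRF1, chr11:53769904-53769952, plus strand, GAS site starting 90 bases before the start site: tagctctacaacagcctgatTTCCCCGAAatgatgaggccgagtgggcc
SOCS1, chr16:10785584-10785639, minus strand, 2 overlapping ISRE cores starting 83 and 77 bases before the start site: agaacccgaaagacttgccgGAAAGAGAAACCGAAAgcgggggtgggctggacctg
IRF2, chr8:46739495-46739549, plus strand, ISRE core then GAS site starting 241 and 224 bases before the start site: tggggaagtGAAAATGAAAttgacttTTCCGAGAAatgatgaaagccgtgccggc
STAT2, chr10:128270256-128270305, plus strand, ISRE core read on the opposite strand, starting 222 bases before the start site: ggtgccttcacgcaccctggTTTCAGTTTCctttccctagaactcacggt
IRF8, chr8:120736167-120736233, plus strand, 2 GAS sites starting 171 and 153 bases before the start site: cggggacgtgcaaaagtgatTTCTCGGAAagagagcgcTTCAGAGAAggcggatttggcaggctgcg

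**Figure D1:**
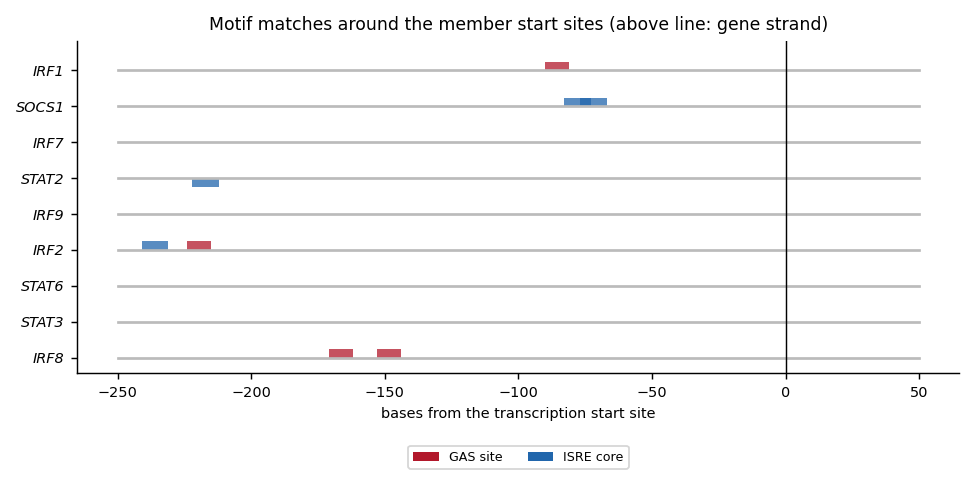
Positions of the GAS site (red) and of the ISRE core (blue) from 250 bases before to 50 bases after the start site of each of the 9 genes, in bases from the start site; bars above a line are on the gene's strand. All matches lie before the start site, in 5 of the 9 genes, and the overlapping pair of SOCS1 and the single GAS site of IRF1 lie closest to it.

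Levels are given as scaled FPKM, which is the deposited FPKM (fragments relative to gene length and to the library's mapped fragments) divided by a median-ratio factor per library, between 0.647 and 1.18. The scaling was made because 1 short RNA, MIR6236, held between 6.01% and 79.7% of a library's summed FPKM. FPKM is per length, so levels can be set beside each other between genes. Read totals are unknown. The steps between low values give relative depths from 0.468 to 1, where 1 is the deepest library. Differences are on the scale of log2(scaled FPKM + 1), which understates changes of low genes, and were tested with limma with Benjamini-Hochberg adjustment over all genes tested. A gene was tested in a comparison when at least 3 of its libraries reached 1 scaled FPKM, and an adjusted p below 0.05 is counted as a call. No label says whether the 3 libraries of a group came from separate mice, so p-values measure the spread between these libraries. The target of the shRNAs, listed as CD276, had a mean of 23.9 scaled FPKM in sorted sh-NC cells (SD 9.01, n = 3), of 11.0 (SD 3.38) in those labelled sh-B7-H3 (1) and of 24.9 (SD 1.304) in those labelled sh-B7-H3 (2). In bulk tumors it was at 22.6 ± 1.53 with sh-NC and 21.6 ± 3.38 in those labelled sh-B7-H3 (1). CD276 RNA was thus lower in the libraries of 1 of the 3 sh-B7-H3 groups, with a log2 fold change of -1.04 and an adjusted p (limma) of 0.0547, so that the other groups are named here by their label. The 10 leukocyte markers summed to between 169 and 358 scaled FPKM in bulk tumors and between 3.58 and 8.81 in 8 of the 9 sorted libraries, but to 209 in sorted sh-B7-H3 (2) replicate 1. Results that rest on this library are given with and without it.

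In sorted sh-NC cells the order of the 9 levels ran from STAT3 at 36.2 ± 7.10 scaled FPKM (mean and SD of 3 libraries) through IRF7 at 26.3 ± 2.05, STAT6 at 25.7 ± 4.53, IRF9 at 14.2 ± 0.426, IRF2 at 10.7 ± 3.38, STAT2 at 9.21 ± 2.30, IRF1 at 7.11 ± 0.967 and SOCS1 at 1.09 ± 0.168 to IRF8 at 0.162 ± 0.0576. The libraries of IRF7 and STAT6 overlapped, as did each neighbouring pair from IRF9 to IRF1, so their order is not settled by these replicates. With either shRNA against B7-H3, IRF1 stood first, at 58.8 ± 22.2 scaled FPKM with sh-B7-H3 (1) and 60.8 ± 14.6 with sh-B7-H3 (2), although its libraries overlapped those of IRF7, which stood second in both. IRF1 therefore moved from the seventh place to the first, and STAT3 from the first to the third.

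**Figure D2:**
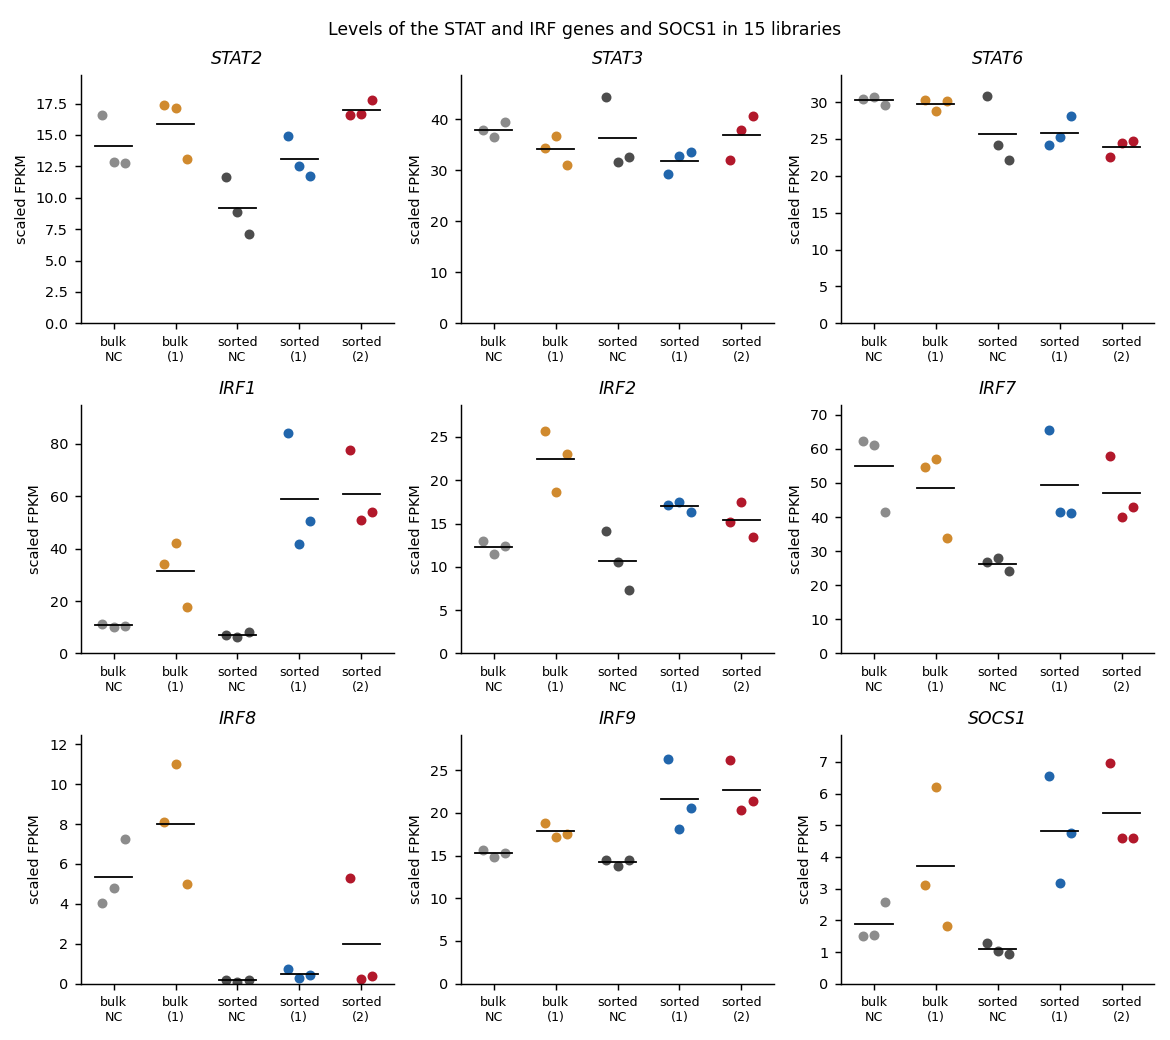
Scaled FPKM of the 9 genes in each of the 15 libraries, grouped by material (bulk tumor or sorted cells) and shRNA (NC, sh-B7-H3 (1) or (2)); points are libraries in the order of their replicate numbers and lines are group means, with axes from 0. IRF1 and SOCS1 are higher in all 6 sorted libraries with an shRNA against B7-H3 than in the 3 with sh-NC, STAT3 and STAT6 overlap between sh-B7-H3 and sh-NC libraries of the same material, and IRF8 is low in sorted cells except in 1 library.

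IRF1, IRF7, IRF9, STAT2, IRF2 and SOCS1 were higher in sorted cells with the shRNAs against B7-H3 than with sh-NC when the 6 sh-B7-H3 libraries were taken as 1 group, and STAT3 and STAT6 were not shown to differ. These are 6 of the 8 members tested, all higher, while 12.6% of the 11428 genes tested were called higher in this comparison. The median log2 fold change was 0.63 over the 8 members and 0.01 over all genes tested. Without the leukocyte-rich library the same 6 were called. This fit takes the 6 sh-B7-H3 libraries as independent and holds no term for the shRNA. Replicate numbers were, however, taken to pair the libraries of the numbered shRNAs. Markers of epithelial tumor cells were higher in sum: the 7 markers summed to between 1026 and 1167 scaled FPKM with sh-NC. With both shRNAs they summed to between 1839 and 2159. Of the 7, 4 were called higher and 0 lower, and 2 had log2 fold changes below 0. Of 6 fibroblast markers 0 were called with both shRNAs and 3 with sh-B7-H3 (2), where they summed to between 119 and 153 scaled FPKM against between 35.8 and 81.2 with sh-NC. The part of these cells in the levels of the members was not tested. With each shRNA alone, the calls were 3 of 8 for sh-B7-H3 (1), namely IRF1, SOCS1 and IRF7, where 9.03% of 11167 genes were called higher, and 5 of 8 for sh-B7-H3 (2), namely these 3 with STAT2 and IRF9, where 11.7% of 11248 genes were called higher. These comparisons share the 3 sh-NC libraries.

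IRF1, the activator of antigen presentation genes, differed most. In sorted sh-NC cells it was at 7.12, 6.14 and 8.07 scaled FPKM in replicates 1 to 3. It was at 83.98, 41.9 and 50.4 scaled FPKM with sh-B7-H3 (1) and at 77.6, 50.8 and 54.0 with sh-B7-H3 (2). The lowest sh-B7-H3 library was above the highest sh-NC library by a wide margin, and replicate 1 was the highest under both shRNAs. The log2 fold change was 2.83 (SE 0.247) with sh-B7-H3 (1) (limma, adjusted p = 0.000215) and 2.91 (SE 0.186) with sh-B7-H3 (2) (limma, adjusted p = 7e-05). With both as 1 group it was 2.87, which is 7.30-fold in scaled FPKM + 1, with an adjusted p (limma) of 6.15e-06. It was called under all 16 alternative settings, between 2.74 and 3.07. The shRNAs were not shown to differ from each other in IRF1, with a log2 difference of -0.09 between (1) and (2) and a 95% confidence interval from -0.70 to 0.53.

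SOCS1, the feedback inhibitor, was the lowest member in sorted sh-NC cells apart from IRF8. It was at 1.27, 1.03 and 0.950 scaled FPKM with sh-NC, at 6.56, 3.19 and 4.74 with sh-B7-H3 (1), and at 6.97, 4.61 and 4.59 with sh-B7-H3 (2). The sh-B7-H3 libraries did not overlap those with sh-NC. SOCS1 rose by 1.44 on the log2 scale (SE 0.210) with sh-B7-H3 (1) (limma, adjusted p = 0.00256) and by 1.60 (SE 0.170) with sh-B7-H3 (2) (limma, adjusted p = 0.000547). With both as 1 group the log2 fold change was 1.52 and the adjusted p (limma) was 0.000218, and the call held under the 15 alternatives that could be computed. Within a library, IRF1 exceeded SOCS1 by 5.59 to 8.49 times in sorted sh-NC cells and by 10.6 to 13.1 times in the 6 sh-B7-H3 libraries, so the ratio of activator to inhibitor RNA was higher in the latter without overlap.

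IRF7, which drives type I interferon genes, was already high in sh-NC cells. It was at 26.8, 28.1 and 24.1 scaled FPKM in sorted sh-NC cells, at 65.5, 41.4 and 41.1 with sh-B7-H3 (1) and at 58.0, 40.1 and 42.8 with sh-B7-H3 (2). All 6 sh-B7-H3 libraries lay above the 3 sh-NC libraries. The log2 fold change was 0.85 (SE 0.196) with sh-B7-H3 (1) (limma, adjusted p = 0.0246), 0.80 (SE 0.163) with sh-B7-H3 (2) (limma, adjusted p = 0.0125) and 0.82 with both (limma, adjusted p = 0.00562). The call for sh-B7-H3 (1) alone was held under 7 of 13 alternatives, with adjusted p values up to 0.0676. It was lost when sh-NC replicate 2 or 3, or sh-B7-H3 (1) replicate 1 or 3, was left out, with adjusted p (limma) of 0.0673, 0.0507, 0.0571 and 0.0513.

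STAT2 and IRF9, which join in the ISGF3 complex, had smaller log2 fold changes than IRF1. STAT2 was at 11.7, 8.83 and 7.12 scaled FPKM in sorted sh-NC cells, at 14.9, 12.5 and 11.7 with sh-B7-H3 (1) and at 16.6, 16.7 and 17.8 with sh-B7-H3 (2). The highest sh-NC library, at 11.67, was almost level with the lowest sh-B7-H3 (1) library, at 11.74, whereas the sh-B7-H3 (2) libraries stood clear of both groups. IRF9, the part of the complex that recognises the ISRE, was at 14.4, 13.7 and 14.5 scaled FPKM in sorted sh-NC cells, at 26.3, 18.1 and 20.5 with sh-B7-H3 (1) and at 26.2, 20.4 and 21.4 with sh-B7-H3 (2), and the sh-B7-H3 and sh-NC libraries did not overlap. STAT2 had log2 fold changes of 0.48 (SE 0.185) with sh-B7-H3 (1) (limma, adjusted p = 0.152) and 0.84 (SE 0.173) with sh-B7-H3 (2) (limma, adjusted p = 0.0125). IRF9 had 0.56 (SE 0.155) with sh-B7-H3 (1) (limma, adjusted p = 0.0528) and 0.63 (SE 0.131) with sh-B7-H3 (2) (limma, adjusted p = 0.0137). The sh-B7-H3 (2) calls each held under 10 of 13 alternatives. That of IRF9 was lost with the replicate block and without sh-NC replicate 2 or sh-B7-H3 (2) replicate 3 (limma, adjusted p = 0.0519, 0.0673 and 0.0602), and that of STAT2 without sh-NC replicate 2 or sh-B7-H3 (2) replicate 2 or 3 (limma, adjusted p = 0.0561, 0.051 and 0.0658). With both shRNAs as 1 group the log2 fold changes were 0.66 for STAT2 (limma, adjusted p = 0.0175) and 0.59 for IRF9 (limma, adjusted p = 0.0071). The STAT2 call of both shRNAs was lost without sh-NC replicate 2 or 3 (limma, adjusted p = 0.0714 and 0.072). The ratio of STAT2 to IRF9 stayed between 0.491 and 0.834 in all 9 sorted libraries.

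IRF2, the competitor of IRF1, overlapped between sh-NC and sh-B7-H3 (2). It was at 14.1, 10.6 and 7.36 scaled FPKM in sorted sh-NC cells, at 17.2, 17.5 and 16.3 with sh-B7-H3 (1) and at 15.2, 17.5 and 13.4 with sh-B7-H3 (2). The highest sh-NC library exceeded the lowest sh-B7-H3 (2) library. The log2 fold change was 0.66 (SE 0.209) with sh-B7-H3 (1) (limma, adjusted p = 0.0804), 0.52 (SE 0.221) with sh-B7-H3 (2) (limma, adjusted p = 0.153) and 0.59 with both (limma, adjusted p = 0.0291). The last call was lost under 7 of 16 alternatives, 6 of which left out 1 library: sh-NC replicate 2 or 3, replicate 2 of sh-B7-H3 (2), or any replicate of sh-B7-H3 (1) (limma, adjusted p between 0.0512 and 0.0954). The ratio of IRF1 to IRF2 within a library went from 0.505, 0.580 and 1.10 in sorted sh-NC cells to between 2.39 and 5.10 in the 6 sh-B7-H3 libraries.

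STAT3 and STAT6, the factors of the IL-6 and IL-4 families, stayed near their sh-NC level. STAT3 was at 44.4, 31.7 and 32.6 scaled FPKM with sh-NC, at 29.4, 32.9 and 33.5 with sh-B7-H3 (1) and at 32.0, 37.9 and 40.7 with sh-B7-H3 (2), and the 3 groups overlapped. STAT6 was at 30.8, 24.2 and 22.2 scaled FPKM with sh-NC, at 24.2, 25.2 and 28.1 with sh-B7-H3 (1) and at 22.6, 24.4 and 24.8 with sh-B7-H3 (2), and these overlapped as well. With both shRNAs as 1 group the log2 fold change of STAT3 was -0.07 with a 95% confidence interval from -0.37 to 0.24. That of STAT6 was -0.03 with an interval from -0.29 to 0.22. Rises of the size seen in IRF9 lie outside both intervals, but changes within the intervals remain possible.

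IRF8, the myeloid factor, did not reach the level for testing in sorted cells. It was at 0.192, 0.0952 and 0.198 scaled FPKM with sh-NC, at 0.715, 0.301 and 0.457 with sh-B7-H3 (1), and at 5.30, 0.214 and 0.400 with sh-B7-H3 (2), where the first value is the leukocyte-rich library. All 6 sh-B7-H3 libraries lay above the 3 with sh-NC, with p = 0.0238 by a two-sided exact permutation test, which is the lowest value possible for 6 against 3. This test takes the 6 libraries as independent, although the replicate numbers were taken to pair those of the numbered shRNAs. Without the leukocyte-rich library the means were 0.417 ± 0.191 (SD, n = 5) and 0.162 ± 0.0576 (n = 3), where the same exact permutation test gave p = 0.0357, again the lowest possible. Markers of immune cells moved unevenly. The 10 macrophage markers summed to between 64.2 and 69.6 scaled FPKM with sh-NC and between 132 and 168 in the other 5 sh-B7-H3 libraries, and the 10 leukocyte markers to between 3.58 and 6.56 and between 5.68 and 8.81, which overlap. The 8 dendritic cell markers did not separate, at between 1.34 and 2.19 with sh-NC and between 1.298 and 1.80 in those 5 libraries, with CLEC9A and SIGLECH at 0 with sh-NC and CLEC9A and FLT3 at 0 with sh-B7-H3 (1). The 6 B cell markers overlapped, at between 0.424 and 0.912 and between 0.177 and 1.07. The 6 neutrophil markers summed to between 0.117 and 0.979 with sh-NC, between 0.283 and 0.486 with sh-B7-H3 (1), and 2.25 and 1.77 in the other 2 sh-B7-H3 (2) libraries. None of the 10 leukocyte or 10 macrophage markers was at 0 in all 3 libraries of any group. Of the leukocyte markers 0 of 3 tested were called, and of the macrophage markers 3 of 7 (CD14, CD68 and CSF1R), while LYZ2, C1QA, C1QB and C1QC were not; without that library the count was 3 of 7 as well. The 8 T cell markers summed to between 0.456 and 0.784 scaled FPKM with sh-NC, where CD3E, CD4 and CD5 were at 0, and to between 1.19 and 2.04 in the other 5 sh-B7-H3 libraries. The part of these cells in the IRF8 level, and in the levels of the other members, was not tested.

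**Figure D3:**
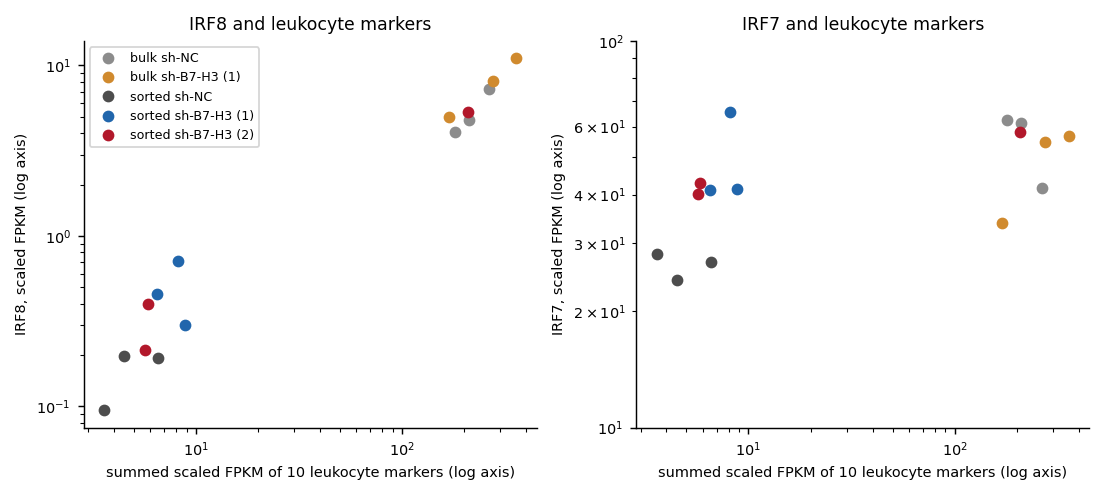
IRF8 (left) and IRF7 (right) in scaled FPKM against the summed scaled FPKM of 10 leukocyte markers in each of the 15 libraries, both axes logarithmic, coloured by group. The bulk libraries and sorted sh-B7-H3 (2) replicate 1 hold both the highest marker sums and the highest IRF8, from 4.04 to 11.0. IRF7 lies at 40.1 to 65.5 in sorted sh-B7-H3 cells. It is at 58.0 in sorted sh-B7-H3 (2) replicate 1, the only such library with a high marker sum. The part of leukocytes in the IRF7 level was not tested.

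In bulk tumors, IRF1 and IRF2 were higher with sh-B7-H3 (1) than with sh-NC, and the other 7 members were not called. These 2 of 9 members tested compare with 12.8% of the 11804 genes tested that were called higher. In a bulk tumor, fewer cells of a type and less RNA per cell cannot be told apart, and the bulk groups also differed in markers of other cells: T cell markers summed to between 2.33 and 2.85 scaled FPKM with sh-NC and between 6.37 and 20.4 with sh-B7-H3 (1), and fibroblast markers to between 90.1 and 171 and between 277 and 653. Neutrophil markers went the other way, from between 5.49 and 11.3 to between 2.11 and 3.67. Of the fibroblast markers 4 of 6 were called higher, of the neutrophil markers 2 of 2 tested lower (S100A8 and S100A9), and of the endothelial markers 1 of 6 lower (CLDN5). The 2 tested T cell markers, CD3E and CD3G, were called higher but, like S100A9, entered the test through 1 group alone. Their part in the levels of the members was not tested.

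IRF1 was at 11.3, 10.2 and 10.6 scaled FPKM in bulk sh-NC tumors and at 34.2, 42.0 and 17.7 with sh-B7-H3 (1). Its replicate 3 was the lowest of the 3 sh-B7-H3 (1) tumors, and this tumor also had the lowest T cell and leukocyte marker sums of its group. The log2 fold change was 1.38 (SE 0.285) with an adjusted p (limma) of 0.0193. The call was lost when any bulk sh-NC library or sh-B7-H3 (1) replicate 1 was left out (limma, adjusted p between 0.0531 and 0.0888). IRF2 was at 12.9, 11.5 and 12.5 scaled FPKM with sh-NC and at 25.7, 18.6 and 23.0 with sh-B7-H3 (1), without overlap. Its log2 fold change of 0.81 (SE 0.129, limma, adjusted p = 0.00859) was held under 12 of 13 alternatives, and was lost on FPKM as deposited (limma, adjusted p = 0.0877).

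The remaining members were not called between the bulk groups. IRF9 was at 15.6, 14.9 and 15.2 scaled FPKM with sh-NC and at 18.9, 17.1 and 17.5 with sh-B7-H3 (1), without overlap, and had a log2 fold change of 0.21 (limma, adjusted p = 0.103). SOCS1 was at 1.51, 1.53 and 2.59 with sh-NC and at 3.11, 6.21 and 1.82 with sh-B7-H3 (1), and the lowest sh-B7-H3 (1) tumor lay within the sh-NC range. IRF7 was at 62.4, 61.2 and 41.6 with sh-NC and at 54.6, 56.9 and 33.9 with sh-B7-H3 (1), a log2 fold change of -0.19 with a 95% confidence interval from -0.76 to 0.37. IRF8 was at 4.04, 4.80 and 7.26 with sh-NC and at 8.08, 11.0 and 4.98 with sh-B7-H3 (1). In SOCS1, IRF7, IRF8, STAT2 and STAT3, sh-B7-H3 (1) replicate 3 was again the lowest library of its group. In IRF2, IRF9 and STAT6 the lowest was replicate 2. Replicate 3 also had the lowest relative depth of all libraries, 0.468, and the part of depth in these levels was not tested. STAT2, STAT3 and STAT6 had log2 fold changes of 0.16, -0.15 and -0.03 (limma, adjusted p = 0.454, 0.262 and 0.83).

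**Figure D4:**
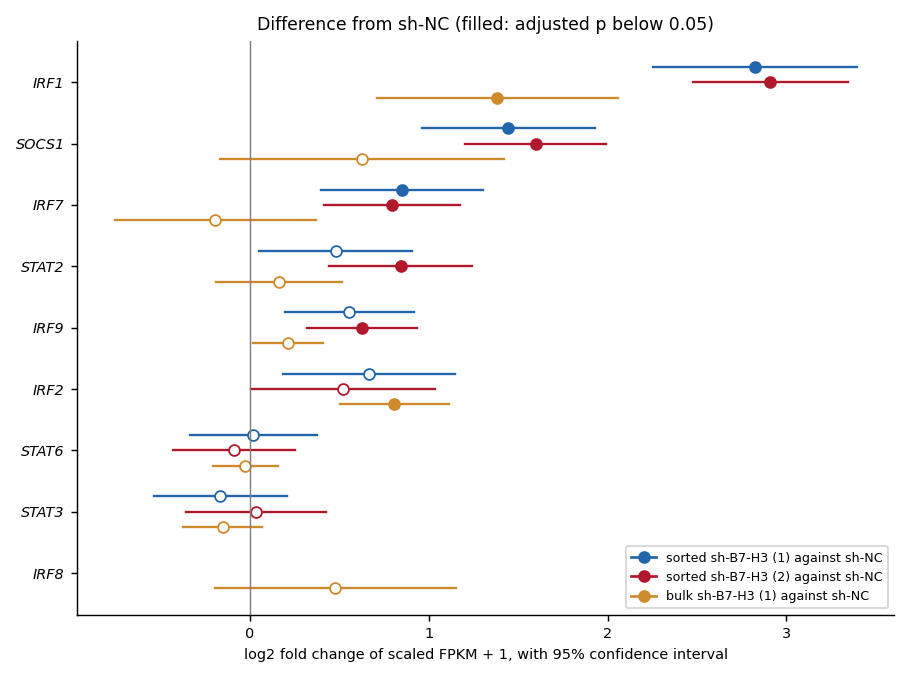
Log2 fold change of scaled FPKM + 1 against sh-NC for each member in sorted cells with sh-B7-H3 (1) in blue and with sh-B7-H3 (2) in red, and in bulk tumors with sh-B7-H3 (1) (orange), with 95% confidence intervals; filled points have an adjusted p (limma) below 0.05, and IRF8 was tested in bulk tumors alone. The sorted intervals of IRF1 start at 2.26 with sh-B7-H3 (1) and at 2.48 with sh-B7-H3 (2), and those of STAT3 and STAT6 span 0 in all 3 comparisons.

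Whether the sh-B7-H3 (1) effect differed between sorted cells and bulk tumors was tested as an interaction. Of the 9 members, 0 were called, as against 0.464% of the 12071 genes tested, with an unadjusted p below 0.05 for IRF1 and IRF7. The effect on IRF1 was larger in sorted cells by 1.44 on the log2 scale (95% confidence interval 0.54 to 2.35, limma, adjusted p = 0.183). The effect on IRF7 was larger by 1.04 (interval 0.32 to 1.77, limma, adjusted p = 0.232). The interactions of the other 7 members had intervals that include 0.

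Sorted cells were also set against bulk tumors of the same shRNA. The sorted cells had been dissociated and passed over a magnetic column, so handling and cell make-up cannot be told apart in these comparisons. With sh-NC, 3 of 9 members were called lower in sorted cells, where 10.4% of the 11424 genes tested were called lower. IRF7 fell by 1.02 on the log2 scale (limma, adjusted p = 0.00874) and IRF1 by 0.54 (limma, adjusted p = 0.0315). The remaining member, IRF8, was below 0.2 scaled FPKM in all 3 sorted libraries and entered the test through the bulk libraries alone, so its log2 difference of -2.42 is a description and adds nothing to the count. The IRF1 call was held under 6 of 13 alternatives and the IRF7 call under 10 of 13. Leaving out bulk sh-NC replicate 1, 2 or 3 or sorted sh-NC replicate 2 ended the IRF1 call, and leaving out bulk sh-NC replicate 1 or 2 ended the IRF7 call (limma, adjusted p between 0.0783 and 0.148). With sh-B7-H3 (1), IRF8 alone of 9 members was called lower, where 21.1% of the 11688 genes tested were. It again entered the test through the bulk libraries alone, and its log2 difference was -2.55. IRF7, which was lower in sorted than in bulk sh-NC material, had a log2 difference of 0.03 there (95% confidence interval -0.55 to 0.60). IRF1, also lower with sh-NC, had a log2 difference of 0.91 with sh-B7-H3 (1) (interval 0.10 to 1.72, limma, adjusted p = 0.0724). It was called higher in sorted cells under 4 of 13 alternatives. Relative to 100 scaled FPKM of summed leukocyte markers, IRF8 lay between 2.24 and 3.07 in the 6 bulk tumors, at 2.54 in the leukocyte-rich sorted library and between 2.66 and 8.79 in the other 8 sorted libraries.

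Between the shRNAs, in sorted cells, 0 of 8 members were called, where 3.4% of the 11244 genes tested were. The lowest adjusted p (limma) was 0.107, for STAT2, which was lower with sh-B7-H3 (1) than with sh-B7-H3 (2) by 0.36 on the log2 scale (95% confidence interval -0.61 to -0.12), and 1 unadjusted p was below 0.05. The replicate numbers were taken to pair these 2 groups by the correlation of their deviations. With the pairs as a block, 1863 in place of 382 genes were called but still 0 members. Replicate 1 was the highest library under both shRNAs for 4 of the 8 members, namely IRF1, IRF7, IRF9 and SOCS1, and for 26.7% of all 11428 genes tested in sorted cells.

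Other genes of the STAT and IRF families were examined as well. STAT5A and STAT5B, which act below growth hormone and IL-2 family receptors, had log2 fold changes of 0.08 and 0.03 in sorted cells with both shRNAs (limma, adjusted p = 0.71 and 0.897). STAT4, a factor of T and NK cells, was below 1 scaled FPKM in all 15 libraries and was not tested. IRF3, the partner of IRF7 in the induction of interferon genes, had a mean of 11.6 scaled FPKM with sh-NC (SD 1.94, n = 3) and of 14.5 with both shRNAs (SD 1.07, n = 6), a log2 fold change of 0.31 that was not called (limma, adjusted p = 0.0785). IRF5, a myeloid factor, followed the leukocyte-rich library, at 4.46 scaled FPKM there, between 0.205 and 1.07 in the other 8 sorted libraries and between 4.46 and 11.1 in bulk tumors. IRF4, a lymphoid factor, stayed below 1 scaled FPKM in all 15 libraries.

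Of the 3 IRF2 co-repressors 0 were called in sorted cells, with log2 fold changes between 0.04 for IRF2BP1 (limma, adjusted p = 0.861) and 0.30 for IRF2BPL (limma, adjusted p = 0.122). No interferon gene reached 1 scaled FPKM in 3 libraries. The highest level of IFNG, the gene of IFN-γ, was 0.727 scaled FPKM, in the leukocyte-rich sorted library, and it was listed at 0 in 11 of the 15 libraries. IFNB1 reached 0.298 scaled FPKM at most, and IFNL2 and IFNL3 were listed at 0 in all 15.

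Most receptors and kinases above the members were not called. Of 15 tested of 16, 3 were called higher and 1 lower in sorted cells with both shRNAs, and the median log2 fold change was 0.12, where that of all genes tested was 0.01. Of all 11428 genes tested, 12.6% were called higher. IL13RA1, a receptor chain for IL-4 and IL-13, rose by 0.63 (SE 0.114, limma, adjusted p = 0.00291) and IFNGR2, a chain of the IFN-γ receptor, by 0.43 (limma, adjusted p = 0.00545). IFNLR1, the receptor of type III interferon, went from between 0.658 and 0.751 scaled FPKM to between 1.25 and 1.69. It entered the test through the higher group alone, and without it 2 of 14 were called higher. JAK1, the kinase shared by these receptors, fell by 0.44 (limma, adjusted p = 0.0476) and was not called without the leukocyte-rich library. In bulk tumors 4 of 16 were called higher, namely IFNGR2, IL10RB, IL6ST and JAK2, with log2 fold changes between 0.35 and 0.71. There 12.8% of the 11804 genes tested were called higher.

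Of 16 other brakes on the pathway, all tested, 4 were higher in sorted cells with both shRNAs and 0 were lower, with a median log2 fold change of 0.16. Among the 11428 genes tested, 12.6% were called higher. PTPN6, a phosphatase of blood cells and epithelia, rose by 1.25 (SE 0.240, limma, adjusted p = 0.00398), SOCS2, an inhibitor of growth hormone signalling, by 0.99 (limma, adjusted p = 0.0432), USP18, which blocks the type I interferon receptor, by 0.96 (limma, adjusted p = 0.00897) and SOCS6 by 0.36 (limma, adjusted p = 0.0183). Without the leukocyte-rich library 3 were called. SOCS2 differed between the shRNAs: it was at 10.3, 7.61 and 8.27 scaled FPKM with sh-B7-H3 (1) and at 18.2, 20.97 and 18.7 with sh-B7-H3 (2), against 5.52, 6.25 and 6.40 with sh-NC, and the 3 groups did not overlap. SOCS3, the inhibitor induced by STAT3, had a log2 fold change of 0.14 (limma, adjusted p = 0.562), SOCS4 of -0.05 (limma, adjusted p = 0.797), SOCS5 of -0.34 (limma, adjusted p = 0.0644), SOCS7 of -0.09 (limma, adjusted p = 0.727) and CISH of 0.35 (limma, adjusted p = 0.275). In the SOCS family, then, SOCS1, SOCS2 and SOCS6 were called. In bulk tumors 2 of these 16 brakes, SOCS2 and PTPN6, were called, with log2 fold changes of 0.85 and 0.67. This is near the 12.8% of the 11804 genes tested that were called higher there.

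Genes listed as targets of the members were examined next, by the factor they are known for. The lists were chosen with earlier results of these data known, so their counts are descriptions and not an independent test. In sorted cells with both shRNAs, 12.6% of the 11428 genes tested were called higher. Of 28 genes listed as targets of IRF1 or of GAS sites, 26 were higher and 0 lower in sorted cells with both shRNAs, with a median log2 fold change of 2.11, and without the leukocyte-rich library 26 were called as well. Of these genes, 6 (CIITA, GBP4, GBP5, GBP6, IDO1 and ICAM1) were below 1 scaled FPKM in all sh-NC libraries and entered the test through the other group alone; without them 20 of 22 were higher, with a median of 1.88. The largest change was that of CXCL9, a chemokine for T cells, at 3.70 (SE 0.264, limma, adjusted p = 5.37e-06), from between 1.61 and 4.85 scaled FPKM with sh-NC to between 36.6 and 70.2. The smallest was that of B2M, the light chain of MHC class I, at 0.08 (limma, adjusted p = 0.86), whose mean in sorted sh-NC cells was 4984 scaled FPKM (SD 1108, n = 3). Of 20 genes listed as ISGF3 targets, 15 were higher and 0 lower, with a median of 0.86, and 13 were called without the leukocyte-rich library. Without MX1 and OAS2, which entered through 1 group alone, 14 of 18 were higher. OASL2, of the oligoadenylate synthetase family, rose by 2.16 (SE 0.205, limma, adjusted p = 3.68e-05), and MX2, of the Mx antiviral GTPases, had 0.13 (limma, adjusted p = 0.533). These lists share genes that answer to more than 1 of the factors.

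Of 14 genes listed as STAT3 targets, 1 was higher and 1 lower in sorted cells with both shRNAs, with a median of -0.03. The higher gene was ICAM1, an adhesion molecule that is also on the IRF1 and GAS list, which went from between 0.265 and 0.394 scaled FPKM to between 1.77 and 8.77 and entered the test through the higher group alone. The lower gene was FOSL1, a subunit of AP-1, which fell by 0.71 (limma, adjusted p = 0.0219). Of 12 genes listed as STAT6 targets, 4 reached the level for testing and 0 were called, with log2 fold changes between -0.17 for CCL17 (limma, adjusted p = 0.854) and 0.35 for CISH. Of 10 myeloid genes listed for IRF8, 4 were tested and 2 were higher, CTSS, the cathepsin that trims the invariant chain, at 3.63 (SE 0.484, limma, adjusted p = 0.00038), and CSF1R, the receptor of macrophage colony-stimulating factor, at 2.18 (limma, adjusted p = 0.00318). SPI1, 1 of the 4 tested, entered the test through 1 group alone, and 2 of 3 were higher without it. Without the leukocyte-rich library 3 of 4 were higher, a count from which such genes were not removed. ZBTB46 had the smallest change, -0.20 (limma, adjusted p = 0.388). CTSS rose by 3.68 with sh-B7-H3 (1) alone (limma, adjusted p = 6.79e-05), where IRF8 was at most 0.715 scaled FPKM. The part of IRF8 and of myeloid cells in these changes was not tested.

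In bulk tumors fewer of these targets were called, where 12.8% of the 11804 genes tested were called higher. Of 26 tested IRF1 and GAS targets, 10 were higher and 0 lower, with a median log2 fold change of 0.79 (9 of 25 without CIITA, which entered through 1 group alone), and CXCL9 rose by 2.23 (SE 0.483, limma, adjusted p = 0.0224). Of 20 ISGF3 targets 2 were higher, OASL2 at 1.00 (limma, adjusted p = 0.015) and EIF2AK2 at 0.44 (limma, adjusted p = 0.0494), and the median was -0.06, where that of all genes tested was 0.02. Of 11 tested STAT6 targets, ARG1 fell by 2.16 (SE 0.392, limma, adjusted p = 0.0131). CHIL3, with a log2 difference of -1.53, and CCL22, with 0.79, were also called but entered the test through 1 group alone. STAT6 itself stood between 28.8 and 30.7 scaled FPKM in all 6 bulk tumors. ARG1 and CHIL3 are genes of alternatively activated macrophages. FOSL1 was the only STAT3 target called of 14, and fell by 1.10 (limma, adjusted p = 0.0246). As an interaction, 1 of 20 ISGF3 targets and 0 of 28 IRF1 and GAS targets were called between sorted cells and bulk tumors. Of all 12071 genes tested, 0.464% were called. The medians were 0.95 and 1.41, where that of all genes tested was -0.01. The interaction was above 0 in 19 and 27 of the targets, measured in the same libraries and so not independent of each other.

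**Figure D5:**
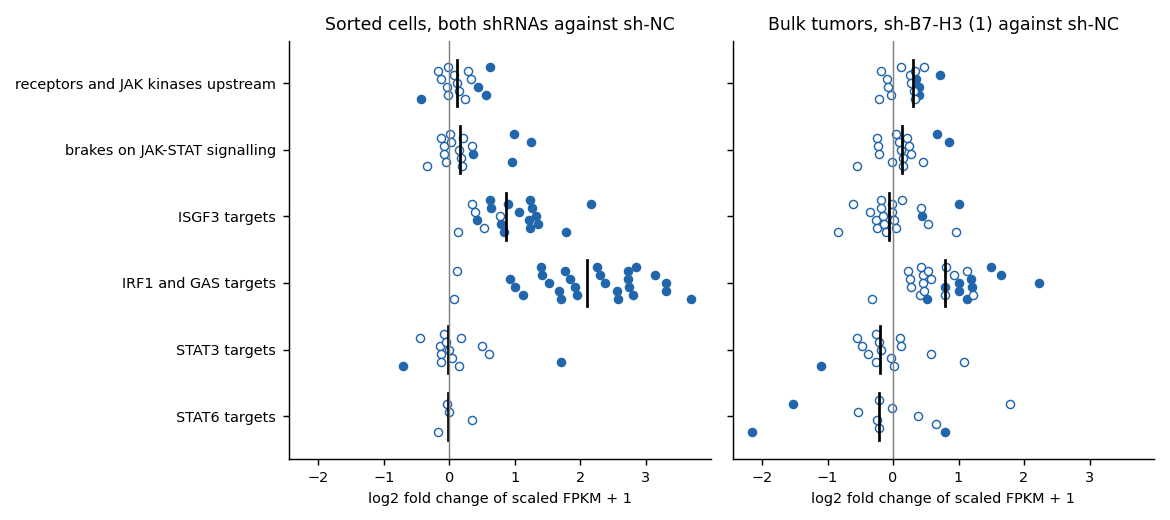
Log2 fold changes of scaled FPKM + 1 for the genes of 6 lists around the members, in sorted cells with both shRNAs (left) and in bulk tumors with sh-B7-H3 (1) (right), each against sh-NC; points are genes, filled where the adjusted p (limma) is below 0.05, and black lines are medians. In sorted cells the medians are 2.11 for IRF1 and GAS targets and 0.86 for ISGF3 targets, and between -0.03 and 0.16 for the other 4 lists.

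For each member that reached 1 scaled FPKM in sorted cells, the genes most like it were sought among 11291 others by Pearson correlation of log2 levels over the 9 sorted libraries, in which 6 sh-B7-H3 and 3 sh-NC libraries set apart any gene that differs between them. IRF1 was most like GM12250 and TRIM25 (r = 0.997 for both) and MARVELD2 (r = 0.996). SOCS1 was most like CXCL10 (r = 0.994), UBA7 (r = 0.993) and CMPK2 (r = 0.991), and IRF9 most like CMPK2 (r = 0.986), PARP12 and RAD51AP1 (r = 0.980 for both). IRF7 was most like PIGG (r = 0.987), TRIM30A (r = 0.984) and GRAMD3 (r = 0.982). STAT2 was most like CCDC149 (r = 0.982), FBXW7 (r = 0.980) and SPTLC2 (r = 0.977), and IRF2 most like IWS1 (r = 0.983), CARMIL1 and FAM3C (r = 0.964 for both). STAT3 was most like GNA11 (r = 0.991), MED16 and SNX27 (r = 0.987 for both), and STAT6 most like FBXL20 (r = 0.976), A730008H23RIK (r = 0.963) and LAMB2 (r = 0.955). No gene was among the closest 3 of more than 1 member apart from CMPK2.

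Some member genes overlap others in the GENCODE annotation of GRCm38, the build that the submitters' processing notes name as mm10, and whether the counting used strand is not given in the sources used here. IRF8 (chr8:120736358-120756694, plus strand) lies wholly within the gene Gm20388 of the same strand. IRF1 (chr11:53770014-53778374, plus strand) shares 907 bases with Gm17334 of the opposite strand, and IRF9 (chr14:55603571-55610030, plus strand) shares 123 bases with Rnf31 of the same strand. STAT3 (chr11:100885098-100939540, minus strand), STAT6 (chr10:127642986-127660957, plus strand) and IRF7 (chr7:141262706-141266481, minus strand) share 72, 40 and 45 bases with genes of the opposite strand, and IRF2 (chr8:46739732-46847458, plus strand) holds 3 short transcripts of the opposite strand. These values are uncertain to the extent that reads were shared. SOCS1 (chr16:10782240-10785536, minus strand) and STAT2 (chr10:128270559-128292849, plus strand) overlap no other gene.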

How the data were processed

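RNA sequencing of 15 libraries from bulk 105K tumors and sorted 105K tumor cells was analysed by the groups and replicate numbers of the sample labels. The deposited table holds FPKM per gene and library, although it is named for counts; the aligner and annotation the authors used are not given in the sources used here, and the labels and the paper name different library kits. A smaller deposited table of log2 values repeats part of it and was not used. Of 24917 entries, 26 with dates for symbols were dropped. FPKM was divided by median-ratio factors (from 9872 genes of 1 FPKM or more throughout), a pseudocount of 1 was added, and log2 values were compared in R 4.3.3 with limma 3.58.1 (mean-variance trend on, Benjamini-Hochberg adjustment), after a filter of 1 scaled FPKM in 3 libraries. Single values were compared by exact two-sided permutation tests (scipy 1.17.1), which for 3 against 3 libraries cannot go below p = 0.1. The procedure was tested on simulated data. Python 3.11.15, numpy 2.4.6 and pandas 2.3.3 were used.

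The members, gene lists and tests were chosen with earlier results of these data known. Named genes are all members, the other STAT, IRF and SOCS genes, CD276, the largest and smallest log2 fold change of each list tested in sorted cells with both shRNAs, and the 3 genes most like each member. Other names, where 5 or fewer genes were counted, were chosen after their values were seen. Replicate numbers were taken to pair 2 groups where the deviations of all same-numbered libraries from their group means correlated above 0.1, which held for sorted sh-B7-H3 (1) and (2) (r between 0.208 and 0.229) and for no other pair of groups. Some differently numbered libraries of other groups correlated more, such as bulk sh-NC replicate 3 with bulk sh-B7-H3 (1) replicate 2 (r = 0.544). The pairing is therefore an inference. Alternatives were FPKM as deposited, quantile normalization, a pseudocount of 0.1, other filters, a replicate block, all groups in 1 fit and leaving out each library. Lists without sorted sh-B7-H3 (2) replicate 1, and without genes of which all libraries of 1 group lie below 1 scaled FPKM, were added after seeing the data. Promoter windows came from RefSeq (GRCm38.p6). Gene positions came from GENCODE. A result named by the rule is not reported here.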

Additional observations from a re-analysis of the deposited data

Results flagged for a closer look

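Over the 6 sorted libraries with an shRNA against B7-H3, 22 genes (the members, the other STAT, IRF and SOCS genes and CD276, where a library reached 1 scaled FPKM) were screened with Dixon's criterion for a library that stands apart, which chance passes in about 5% of such groups. In 3 of them a library stood apart. IRF8 and IRF5 were at 5.30 and 4.46 scaled FPKM in sorted sh-B7-H3 (2) replicate 1, the library whose leukocyte markers summed to 209 scaled FPKM. IRF3 was low in sorted sh-B7-H3 (2) replicate 2, at 12.4 scaled FPKM, within the sorted sh-NC range of 9.76 to 13.6.

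Between the numbered shRNAs in sorted cells, 2 of these genes differed by the test of the difference itself. SOCS2 had a log2 difference, (1) minus (2), of -1.07 (SE 0.122, limma, adjusted p = 0.00721), being lower with sh-B7-H3 (1) in all 3 libraries. CD276 had -1.16 (SE 0.200, limma, adjusted p = 0.0278), also lower with sh-B7-H3 (1) in all 3.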

How the results depend on the processing

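Of 948 recomputed log2 fold changes of single members, 894 kept their side of the threshold, 36 lost a call, 18 gained one, and no called member changed direction. Causes of the changes below were not tested.

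With FPKM as deposited, members called were 5 in sorted sh-B7-H3 (1), 1 in bulk, 1 in sorted against bulk sh-NC and 2 in sorted against bulk sh-B7-H3 (1), and genes called were 961 in bulk, 652 in sorted against bulk sh-NC and 128 for the interaction. With all groups in 1 fit, members called were 5 in sorted sh-B7-H3 (1) and 2 in sorted against bulk sh-B7-H3 (1), and genes called were 3083 in sorted against bulk sh-NC and 36 for the interaction. With the replicate block, genes called were 915 in sorted sh-B7-H3 (1), 1396 in sorted sh-B7-H3 (2), 1413 in bulk, 1863 between the shRNAs and 1 for the interaction, and members called were 2 in sorted against bulk sh-B7-H3 (1). In these settings the member added to IRF8 in sorted against bulk sh-B7-H3 (1) was IRF1, called higher in sorted cells. With 1 scaled FPKM in every library, members called in sorted against bulk sh-B7-H3 (1) were 0, since IRF8 was no longer tested, and genes called were 1279 in sorted against bulk sh-NC and 13 for the interaction. Without a filter 137 genes were called between the shRNAs, and with a pseudocount of 0.1 25 were called for the interaction.

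Leaving out 1 library at a time gave between 2 and 5 members called in sorted sh-B7-H3 (1), 3 and 6 in sorted sh-B7-H3 (2), 4 and 6 with both shRNAs, 1 and 2 in bulk, 0 and 5 in sorted against bulk sh-NC, and 0 and 2 in sorted against bulk sh-B7-H3 (1). Genes called ranged from 724 to 1948, 964 to 3611, 1411 to 2585, 546 to 3793, 140 to 4439 and 1673 to 3816 in the same order, from 35 to 890 between the shRNAs, and from 12 to 72 for the interaction. Depth limits what can be said of IRF8, STAT4, IRF4 and the interferon genes, which lie below 1 scaled FPKM in all or nearly all sorted libraries.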
